A study of Mus musculus with 15 samples.

Results

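The clustered histone genes are the short genes, gathered in 4 genomic clusters, that encode the linker histone H1 and the core histones H2A, H2B, H3 and H4. They were taken as every row of the deposited count matrix whose GENCODE M21 symbol begins with Hist1 to Hist4 followed by h1, h2a, h2b, h3 or h4, a rule on names that uses no measured value. This gave 68 of the 46078 genes in the matrix, of which 65 are annotated as protein coding and 3 as pseudogenes. There were 6 H1, 20 H2A, 17 H2B, 12 H3 and 13 H4 genes. The Hist1 cluster on chromosome 13 held 54 of them, Hist2 on chromosome 3 held 10, Hist3 on chromosome 11 held 3 and Hist4 on chromosome 6 held 1. A further 2 annotated symbols of the same form, Hist1h2bh and Hist1h2bm, were not analysed here.

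RNA came from B16-F10, a pigmented mouse melanoma cell line, in 15 libraries, 3 in each of 5 groups. In one arm cells received 2 µM GSK126, 2 µM DZNep or the vehicle DMSO, and in the other an siRNA against Ezh2 (siEzh2) or a scrambled control (scr). GSK126 inhibits the methyltransferase activity of EZH2, the enzyme of Polycomb repressive complex 2 that methylates a lysine in the tail of histone H3. DZNep, 3-deazaneplanocin A, inhibits S-adenosylhomocysteine hydrolase and so acts on many methyltransferases. How long the cells were treated, the siRNA sequence and how the libraries were made (with or without poly(A) selection) could not be read from the labels. No label says that replicates came from different cultures, so the p-values speak for the spread among these libraries, which may be technical.

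Most clustered histone genes are transcribed in S phase, when newly made DNA has to be packed into nucleosomes. Their mRNAs usually lack a poly(A) tail and end instead just after a conserved stem-loop, which is bound by the stem-loop binding protein SLBP, while the U7 snRNP guides the cut that forms the end. Some members also have longer polyadenylated transcripts that are made outside S phase or in differentiating cells, and libraries that select poly(A) tails hold mainly those. The GENCODE M21 transcripts were searched for a stem of 6 base pairs that opens with GG and closes with CC. Its loop had 4 bases starting with T, the stem base before the loop was T, and G-T pairs were allowed. A match was found in 44 of the 68 members. The matches in the members that the results turn on are shown first, with the stem and loop in capitals and the flanking bases in lower case (GRCm38, transcript strand).
Hist1h1c: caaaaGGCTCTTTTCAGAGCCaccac
Hist3h2a: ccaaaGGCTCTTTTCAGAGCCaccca
Hist1h2be: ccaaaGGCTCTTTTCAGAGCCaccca
Hist1h2bg: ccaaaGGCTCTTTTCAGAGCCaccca
Hist1h3d: ccaaaGGCTCTTTTCAGAGCCacccc
Hist1h4i: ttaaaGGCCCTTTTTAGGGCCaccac
The first 5 share the same 16 letters, and Hist1h4i, an H4 gene, has a different stem and loop. The annotated transcripts of Hist2h2be and Hist1h2bc, which are both H2B genes, and of Hist1h2af held no such match.

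Counts were concentrated in a few members. Of the 68 genes, 13 passed the low-count filter, 33 had counts but fell below it and 22 had no count in any library. The 13 were 2 H1, 3 H2A, 4 H2B, 2 H3 and 2 H4 genes, and they held 96.9% of the reads counted for members. Hist1h1c, Hist2h2be, Hist1h2bc and Hist3h2a alone held 84.1%. All 68 members together took between 0.0043% and 0.00817% of a library's counts. Per length, over all 15 libraries, Hist1h1c was highest with a mean of 11.4 RPKM, followed by Hist1h2bc with 10.04 RPKM and Hist2h2be with 5.55 RPKM. Hist1h2af, Hist1h4i and Hist3h2a lay close together at 3.69, 3.65 and 3.50 RPKM. The edge of the filter ran between Hist1h3g, an H3 gene with 129 counts over the 15 libraries, and Hist2h4, an H4 gene with 114.

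Members past the filter differed from the rest in the medians of sequence uniqueness and exon length as well as in counts. A median of 69.4% of their transcript 50-mers occurred in no other gene, against 50.5% for members with counts below the filter and 13% for members at 0. Their median exon length was 1156 bases, against 528 and 411 bases in those same sets. The uniqueness ranges overlapped, at 6 to 100% past the filter and 0 to 100% in each other set. Hist1h1b had no count in any library, though 100% of its 50-mers were unique. A stem-loop match was found in 10 of the 13, in 26 of the 33 and in 8 of the 22. Annotation ran more than 100 bases beyond it in 9 of those 10, in 11 of those 26 and in 2 of those 8. A gene at 0 was below 3 counts, or between 0.0465 and 0.0901 CPM (counts scaled to a common library size) depending on the library, a limit that covers counting error only. No source used here says how the authors counted reads that match several genes, and its part in the low counts was not tested. Reads of Hist1h2af are uncertain for that reason, since only 6.0% of its 50-mers were unique and only its coding stretch of 399 bases is annotated. Hist1h2be shares 816 annotated exon bases with Hist1h1e and Gm11398, and Hist3h2a shares 708 with Trim17, so their reads could be split or lost there.

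**Figure D1:**
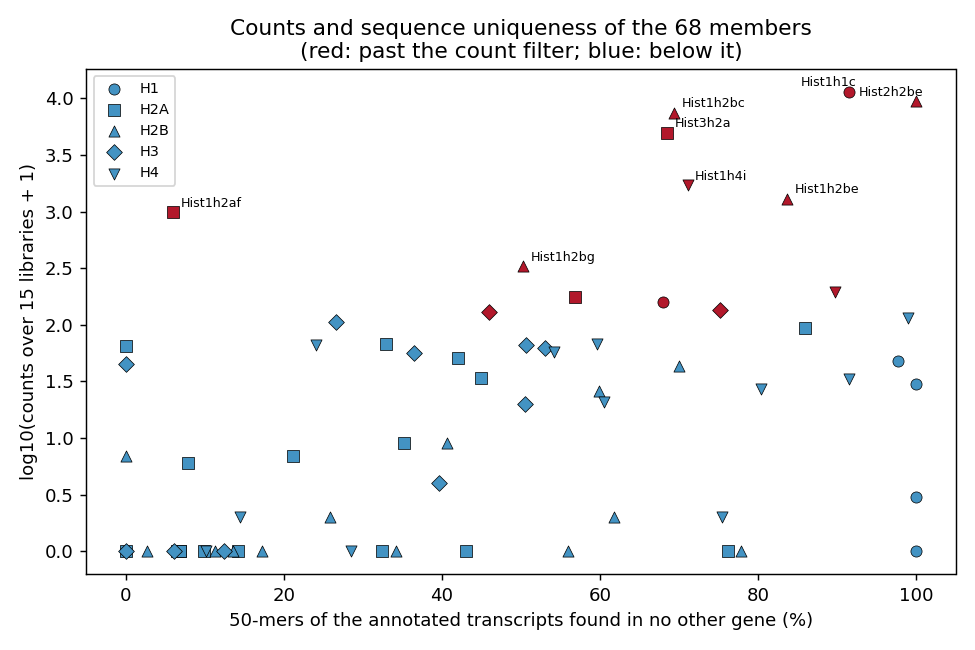
Counts summed over 15 libraries (vertical axis, log10 of counts + 1) against the percentage of 50-mers of each member's annotated transcripts found in no other gene (horizontal axis); 1 point per member, with shape for the protein class and red for the 13 past the count filter. The members with most counts lie to the right, and Hist1h2af, at 6.0%, is the exception among those past the filter.

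The siRNA acted on its target. Ezh2 was at 37.6, 39.9 and 41.3 CPM in the siEzh2 libraries, against 215, 227 and 215 CPM in scr, a log2 fold change of -2.47 ± 0.05 (SE, edgeR adjusted p = 1.22e-17). Total counts per library lay between 33299524 and 64545747, so 1 count was worth 0.0155 to 0.03 CPM. The melanocyte markers Mitf, Pmel, Tyr, Tyrp1, Dct, Mlana and Sox10 all passed the filter and summed to 21398 to 21757 CPM with GSK126, 22037 to 22369 CPM with DZNep and 25272 to 25619 CPM in DMSO, and to 24063 to 25525 CPM with siEzh2, against 18897 to 19994 CPM in scr. All 7 were higher with siEzh2 than in scr, and 5 were lower and 1 higher in scr than in DMSO. Against DMSO, 2 were higher and 3 lower with DZNep, and 0 were higher and 3 lower with GSK126. Dct averaged 4958 CPM with DZNep and 8771 CPM in DMSO, so the lower DZNep sum was not shared by all 7. Of 7 blood and endothelial markers, Cd3e, Cdh5, Hbb-bs and Itgam were at 0 and the sum was 0.0507 to 0.204 CPM, and of 4 keratinocyte markers Krt5 and Krt14 were at 0 and the sum was 0 to 0.0477 CPM. The 6 fibroblast markers summed to 16.1 to 18.1 CPM in DZNep, against 11.9 to 12.9 CPM in DMSO, and to 14.4 to 16.4 CPM in siEzh2, against 12.7 to 13.5 CPM in scr, while Dcn and Col3a1 had 3 and 5 counts in all. The part of the melanocyte and fibroblast markers in the results was not tested. In bulk RNA, fewer cells that express a gene and less RNA per cell cannot be told apart.

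The summed level of the 68 members was lower with DZNep and higher with siEzh2 than in the matching controls. It was 61.1 ± 1.2 CPM with GSK126, 45.2 ± 1.64 CPM with DZNep and 67.8 ± 6.97 CPM in DMSO, and 77.8 ± 3.47 CPM with siEzh2 against 54.3 ± 1.82 CPM in scr (SD, n = 3 each). The log2 ratio of group means was -0.58 for DZNep with DMSO and 0.52 for siEzh2 with scr. The libraries did not overlap in either pair, nor in GSK126 with DMSO or scr with DMSO, while siEzh2, at 74.9 to 81.6 CPM, overlapped DMSO, at 63.2 to 75.8 CPM. The sum carries no test. Without Hist2h2be the ratio for DZNep with DMSO was -0.27, and without Hist1h1c the ratio for siEzh2 with scr was 0.38. The lower DZNep sum was not shared by all clusters. The 54 Hist1 members summed to 36.4 to 39.5 CPM with DZNep, within the 35.5 to 47.3 CPM of DMSO. Hist2 members summed to 3.94 to 4.10 CPM, against 17.1 to 18.5 CPM in DMSO, and Hist3 members to 3.17 to 3.34, against 8.29 to 10.7 CPM. Most of the Hist2 sum was Hist2h2be, and most of the Hist3 sum was Hist3h2a.

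**Figure D2:**
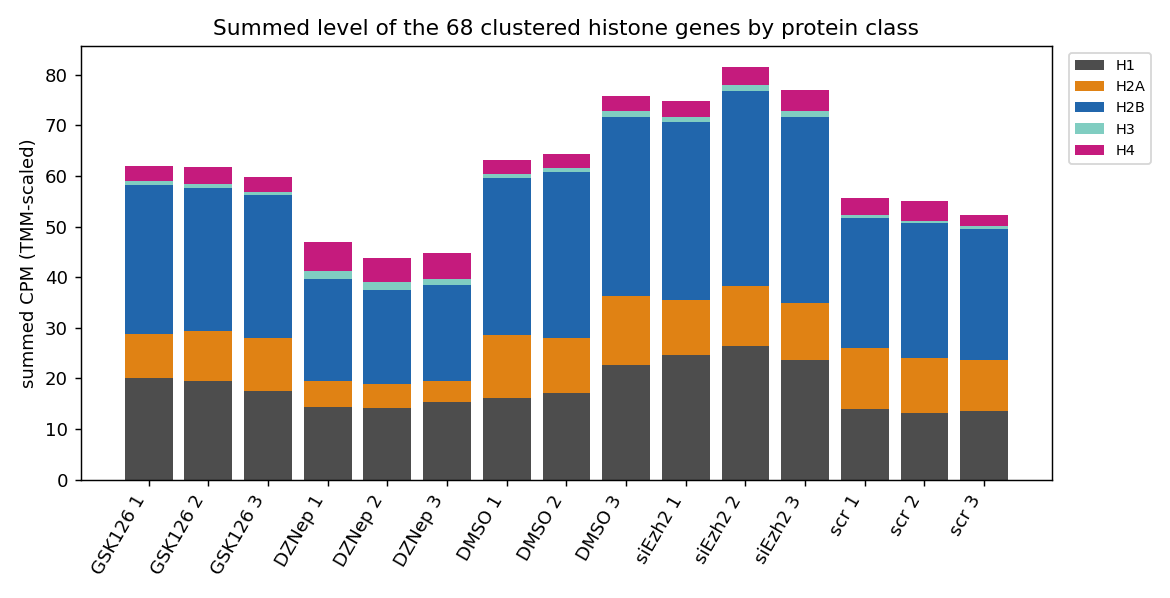
Summed CPM of the 68 members in each of the 15 libraries (bars from 0), split by protein class. The DZNep bars are the lowest, and within them the H3 and H4 segments are wider than in DMSO while the H2A and H2B segments are narrower.

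With DZNep, Hist2h2be, Hist1h2af, Hist1h2be, Hist3h2a and Hist1h1c fell, and Hist1h2bg, Hist1h4i and Hist1h3g rose. Thus 5 of the 13 tested members were lower and 3 were higher with DZNep than in DMSO, where 31% of all 15152 tested genes were lower and 31.2% higher. Calls in both directions were thus common among all genes as well. The median log2 fold change of the 13 was 0.46, against 0.00 for all tested genes, and was the value of Hist1h4d, a low-count member that was not called. The DZNep and DMSO libraries did not overlap for 11 of the 13, against 63% of all tested genes.

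The falling members were H2A, H2B and H1 genes. Hist2h2be, an H2B gene of the Hist2 cluster (chr3:96221119-96223738, plus strand), had 3.27, 3.43 and 3.53 CPM in the DZNep libraries, against 18.1, 16.8 and 17.3 CPM in DMSO. Every DZNep library lay far below every DMSO library, and the log2 fold change was -2.35 ± 0.08 (adjusted p = 3.52e-15), which is 5.09-fold lower. All of the 50-mers of this gene are unique, so its reads are not open to the sharing described above. Hist1h2be, an H2B gene of the Hist1 cluster, had 1.03, 0.81 and 0.498 CPM with DZNep, against 2.37, 2.68 and 2.39 CPM in DMSO. Its groups did not overlap either, at -1.69 ± 0.18 (adjusted p = 8.63e-08).

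Hist3h2a, an H2A gene, had 3.25, 3.31 and 3.12 CPM with DZNep, against 9.13, 8.24 and 10.6 CPM in DMSO. The DZNep libraries were tightly grouped below all DMSO libraries, and the change was -1.54 ± 0.11 (adjusted p = 2.24e-10). Hist1h2af, whose reads are uncertain, had 0.738, 0.596 and 0.204 CPM with DZNep, against 2.77, 2.17 and 2.34 CPM in DMSO (-2.28 ± 0.36, adjusted p = 5.2e-05). Hist1h1c, a linker histone gene, moved least, with 14, 13.7 and 14.8 CPM against 15.8, 17 and 22.3 CPM in DMSO. All 3 DZNep libraries were below the lowest DMSO library, but DMSO replicate 3 stood well above the other two (-0.38 ± 0.10, adjusted p = 0.00231).

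The rising members were H2B, H4 and H3 genes. Hist1h2bg, an H2B gene, had 1.39, 1.31 and 2.06 CPM with DZNep, against 0.263, 0.256 and 0.339 CPM in DMSO. The groups were well separated, and the change was 2.44 ± 0.24 (adjusted p = 2.33e-08), which is 5.42-fold higher. Hist1h4i, the most abundant H4 member per length, had 4.69, 3.86 and 4.19 CPM with DZNep, against 2.13, 2.12 and 2.37 CPM in DMSO (0.93 ± 0.18, adjusted p = 0.000214). The DMSO values were nearly equal and lay below all DZNep values. Hist1h3g, an H3 gene of few reads, had 0.265, 0.572 and 0.249 CPM with DZNep, against 0.0717, 0.163 and 0.246 CPM in DMSO. Its change of 1.08 ± 0.41 (adjusted p = 0.0279) rested on single libraries: the adjusted p was 0.292 without DZNep replicate 2, 0.111 without DMSO replicate 1 and 0.0613 without DMSO replicate 2, and DESeq2 gave 0.0647.

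Of the other 5 tested members none passed the test. Hist1h2bc, which is among the most abundant, had 14.3, 12.8 and 12.9 CPM with DZNep, within the range of 10.3, 12.9 and 15.1 CPM in DMSO (log2 fold change 0.05, adjusted p = 0.73). Hist1h1e, Hist1h3d, Hist1h2ae and Hist1h4d had log2 fold changes of 1.18, 0.83, 0.74 and 0.46, with adjusted p of 0.0791, 0.0541, 0.0834 and 0.426. These are members of 5 to 18 counts per library in both groups. Summed by class, H3 members reached 1.51 ± 0.21 CPM with DZNep against 0.907 ± 0.246 in DMSO, and H4 members 5.19 ± 0.46 against 2.82 ± 0.09. H2A members summed to 4.67 ± 0.53 CPM with DZNep against 12.4 ± 1.44 in DMSO, and H2B members to 19.2 ± 0.9 against 33.1 ± 2.14 (SD, n = 3 each). The DZNep and DMSO libraries did not overlap in any of these 4 class sums. Single genes carried much of the differences in the H2B, H2A and H4 sums. Hist2h2be averaged 3.41 CPM with DZNep and 17.4 CPM in DMSO, close to the whole H2B difference. Hist3h2a averaged 3.23 and 9.33 CPM, and Hist1h4i 4.25 and 2.21 CPM, in the same groups.

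Members that rose and members that fell with DZNep lay near each other. Hist1h2bg (chr13:23571396-23572013, plus strand) and Hist1h2be (chr13:23583670-23621124, minus strand) are both H2B genes. Their annotated spans lie 11.7 kb apart, a gap measured to the downstream end of Hist1h2be. Hist1h2bg was 5.42-fold higher and Hist1h2be 3.23-fold lower with DZNep, where 31.2% of all tested genes were higher and 31% lower. Hist1h2bg and Hist1h2ae start back to back 0.175 kb apart, and Hist1h2ae had a log2 fold change of 0.74 that did not pass. Because these members moved in opposite directions, their promoters are shown as 150 bases up to the RefSeq start (GRCm38.p6), with the octamer ATTTGCAT, CCAAT and TATAAA in capitals on either strand.
Hist1h2bg (chr13:23571250-23571399, plus strand): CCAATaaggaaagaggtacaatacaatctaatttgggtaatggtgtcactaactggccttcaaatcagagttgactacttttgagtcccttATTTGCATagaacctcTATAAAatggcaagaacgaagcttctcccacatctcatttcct
Hist1h2be (chr13:23585971-23586120, minus strand): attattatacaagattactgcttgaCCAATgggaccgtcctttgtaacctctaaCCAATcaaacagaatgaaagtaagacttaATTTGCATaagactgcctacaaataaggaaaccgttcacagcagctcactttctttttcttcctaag
Hist3h2a (chr11:58954535-58954684, plus strand): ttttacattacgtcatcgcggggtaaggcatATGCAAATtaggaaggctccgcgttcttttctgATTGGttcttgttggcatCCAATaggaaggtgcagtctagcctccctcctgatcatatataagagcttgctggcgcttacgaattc
All 3 windows held the octamer and CCAAT, and only the Hist1h2bg window held TATAAA. The window of Hist1h2be belongs to one of 2 RefSeq starts of that gene. A start was shown only if its window held the first motif searched, so the choice of window fixed that match.

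The same letters were counted on both strands of the RefSeq promoter windows, which run from 250 bases before to 50 after the start and were found for 60 of the 68 members. The octamer was in 21.7% of the members' promoters, against 1.97% of all 27025 genes with a promoter. It was in 38.9% of H2A and 42.9% of H2B promoters and in none of the 6 H1, 10 H3 and 12 H4 promoters. CCAAT was in 85% of members, against 41.1% of all genes, and its share in H4 promoters was 25%. TATAAA was in 58.3% of members, against 15.7% of all genes. AAACACA, a motif of H1 promoters, was in 83.3% of H1 members and 13.3% of all members, against 8.22% of all genes. Such matches describe the letters of these windows and are not measured binding sites.

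**Figure D3:**
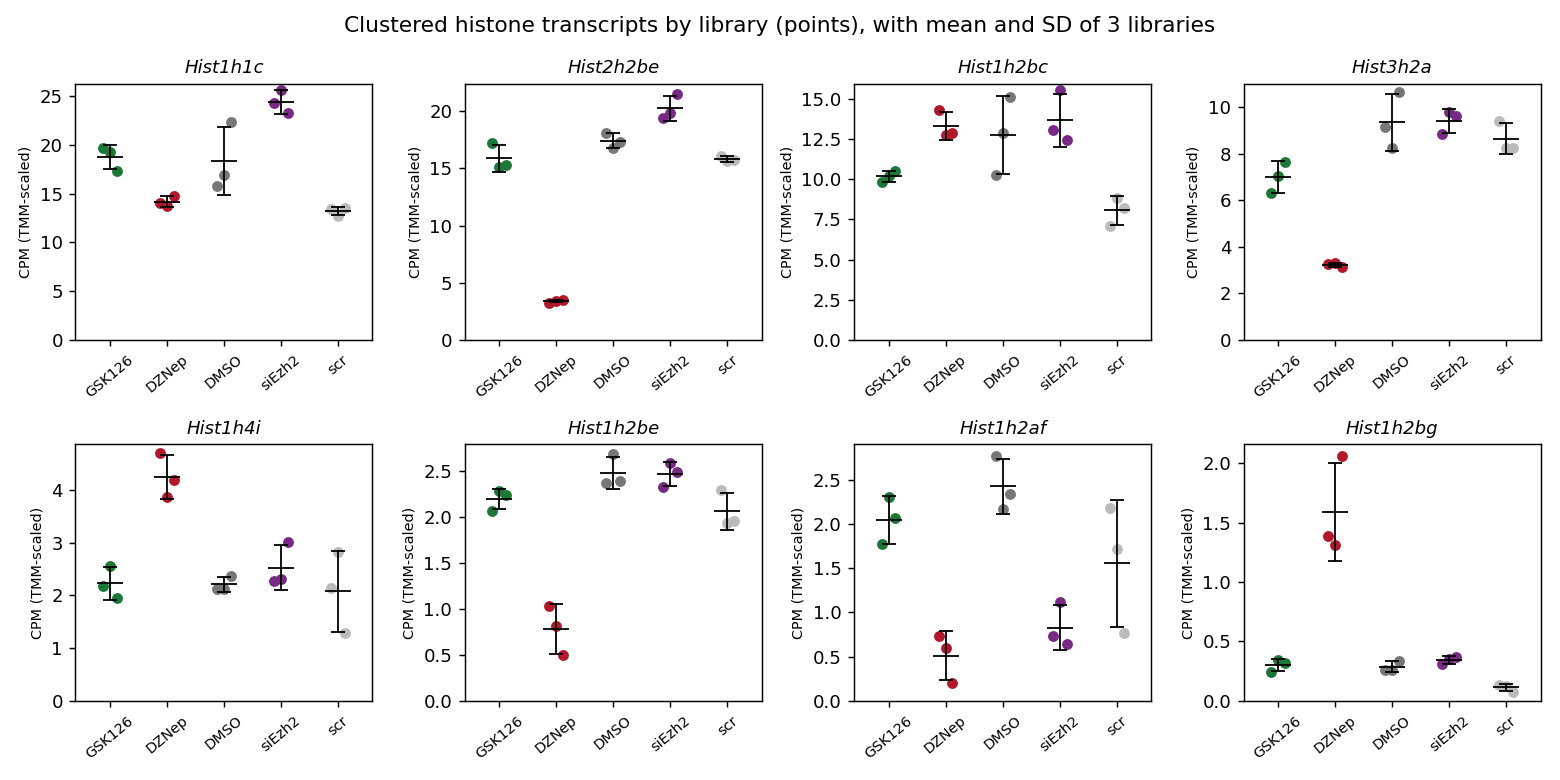
CPM of 8 members in each library (points), with the mean and SD of 3 libraries (bars), for GSK126, DZNep, DMSO, siEzh2 and scr from left to right. Hist2h2be, Hist3h2a and Hist1h2be are lowest with DZNep, Hist1h2bg and Hist1h4i are highest there, and Hist1h1c and Hist2h2be are highest with siEzh2.

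With siEzh2, 3 of the 4 members with the most counts (Hist1h1c, Hist1h2bc and Hist2h2be) and the low-count members Hist1h2bg and Hist1h3d rose, so 5 of the 13 were higher and 0 were lower with siEzh2 than in scr, where 13.2% of all tested genes were higher and 12.9% lower. For the lower direction, 1 member had an unadjusted p under 0.05 and DESeq2 called 1, in each case Hist1h2af. The median log2 fold change of the 13 was 0.27, against -0.01 for all tested genes, and the libraries did not overlap for 7 of the 13, against 41.8% of all tested genes. The rising members Hist1h1c, Hist1h2bc, Hist1h2bg and Hist1h3d were also the members called lower in scr than in DMSO.

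Hist1h1c had 24.3, 25.6 and 23.2 CPM with siEzh2, against 13.4, 12.7 and 13.5 CPM in scr. The groups were far apart, and the change was 0.88 ± 0.10 (adjusted p = 1.33e-06), which is 1.84-fold higher. Hist1h2bc had 13.1, 15.5 and 12.4 CPM with siEzh2, against 7.11, 8.85 and 8.23 CPM in scr (0.76 ± 0.12, adjusted p = 0.000111). Hist2h2be had 19.4, 19.9 and 21.5 CPM with siEzh2, against 16.1, 15.6 and 15.7 CPM in scr (0.36 ± 0.07, adjusted p = 0.000418). In both genes every siEzh2 library was above every scr library, the separation being narrower in Hist2h2be.

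Hist1h2bg and Hist1h3d rose on very few reads. Hist1h2bg had 0.306, 0.355 and 0.365 CPM with siEzh2, against 0.135, 0.127 and 0.0772 CPM in scr (1.55 ± 0.38, adjusted p = 0.00453). Hist1h3d, an H3 gene, had 6, 13 and 9 counts with siEzh2, against 6, 2 and 2 counts in scr (1.70 ± 0.50, adjusted p = 0.0156). Its adjusted p was 0.0924 without siEzh2 replicate 2, 0.0729 without scr replicate 2 and 0.0517 without scr replicate 3. Hist1h2af, with its uncertain reads, had 0.734, 1.11 and 0.639 CPM with siEzh2, against 2.18, 1.72 and 0.772 CPM in scr. It ran against the others and overlapped with scr replicate 3 (-0.94 ± 0.35, adjusted p = 0.0613), and the adjusted p was 0.00426 without that library and 0.045 without siEzh2 replicate 2.

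The remaining members did not pass. Hist3h2a was at 8.83, 9.8 and 9.59 CPM with siEzh2, against 9.4, 8.24 and 8.26 CPM in scr (0.12, adjusted p = 0.386). Hist1h2be and Hist1h4i had log2 fold changes of 0.26 and 0.27 (adjusted p = 0.237 and 0.349), and Hist1h3g had 1.14 (adjusted p = 0.0873). Hist1h4d and Hist1h1e were uneven within the siRNA arm. Hist1h4d had 0.245, 0.608 and 0.228 CPM with siEzh2 and 0.462, 0.572 and 0.206 CPM in scr, and Hist1h1e had 0.153, 0.633 and 0.16 CPM with siEzh2 and 0.327, 0.466 and 0.0772 CPM in scr. Replicate 2 was the highest of its group in each of these. Rn7sk, a small nuclear RNA that is not polyadenylated, was also highest in siEzh2 replicate 2, at 3.67 CPM, and scr replicate 2, at 2.77 CPM, against 0.462 to 2.12 CPM in the other 13 libraries, and its part in these values was not tested.

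The count of rising members was smaller with the other control. With DMSO in place of scr, a comparison added after the data were seen, 2 members were higher with siEzh2 (Hist1h1c at 0.40, adjusted p = 0.00767, and Hist2h2be at 0.22, adjusted p = 0.0309) and 1 was lower (Hist1h2af at -1.54 ± 0.33, adjusted p = 0.0061). Among all tested genes 6.41% were higher and 7.76% lower. The same 2 genes thus exceeded both controls, while Hist1h2bc, at 0.09 with DMSO as the control, did not pass there (adjusted p = 0.669). Neither did Hist1h2bg, at 0.23 (adjusted p = 0.674), or Hist1h3d, at 0.26 (adjusted p = 0.719).

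With GSK126, Hist3h2a fell, so 1 of the 13 was lower and 0 were higher, where 5.54% of all tested genes were lower and 7.15% higher. For the higher direction, 0 members had an unadjusted p under 0.05, and DESeq2 called 0. The median log2 fold change of the 13 was -0.14, against -0.01 for all tested genes, and the libraries did not overlap for 2 of the 13, against 30.7% of all tested genes. Hist3h2a had 6.3, 7.05 and 7.66 CPM with GSK126, against 9.13, 8.24 and 10.6 CPM in DMSO (-0.42 ± 0.10, adjusted p = 0.00711), which is 1.34-fold lower. The adjusted p was 0.0531 without GSK126 replicate 1 and 0.0539 without DMSO replicate 3. The title of GSK126 replicate 1 carries S3, while the siRNA arm carries S4 to S9 and the other drug and DMSO libraries S13 to S20. The labels do not say what this S number means.

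Hist1h1c was at 19.7, 19.3 and 17.4 CPM with GSK126, inside the range of 15.8, 17 and 22.3 CPM in DMSO. Hist2h2be was at 17.2, 15.1 and 15.3 CPM with GSK126, against 18.1, 16.8 and 17.3 CPM in DMSO (-0.14 ± 0.07, adjusted p = 0.194). Hist1h2bc was at 9.84, 10.2 and 10.5 CPM with GSK126, against 10.3, 12.9 and 15.1 CPM in DMSO (-0.34 ± 0.12, adjusted p = 0.0705), and without DMSO replicate 1 it was lower at an adjusted p of 0.00483. DMSO replicate 3 had the highest value of its group for Hist1h1c, Hist1h2bc and Hist3h2a. The other 9 members had log2 fold changes between -1.04 for Hist1h3g and 0.30 for Hist1h4d, and none of them passed.

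**Figure D4:**
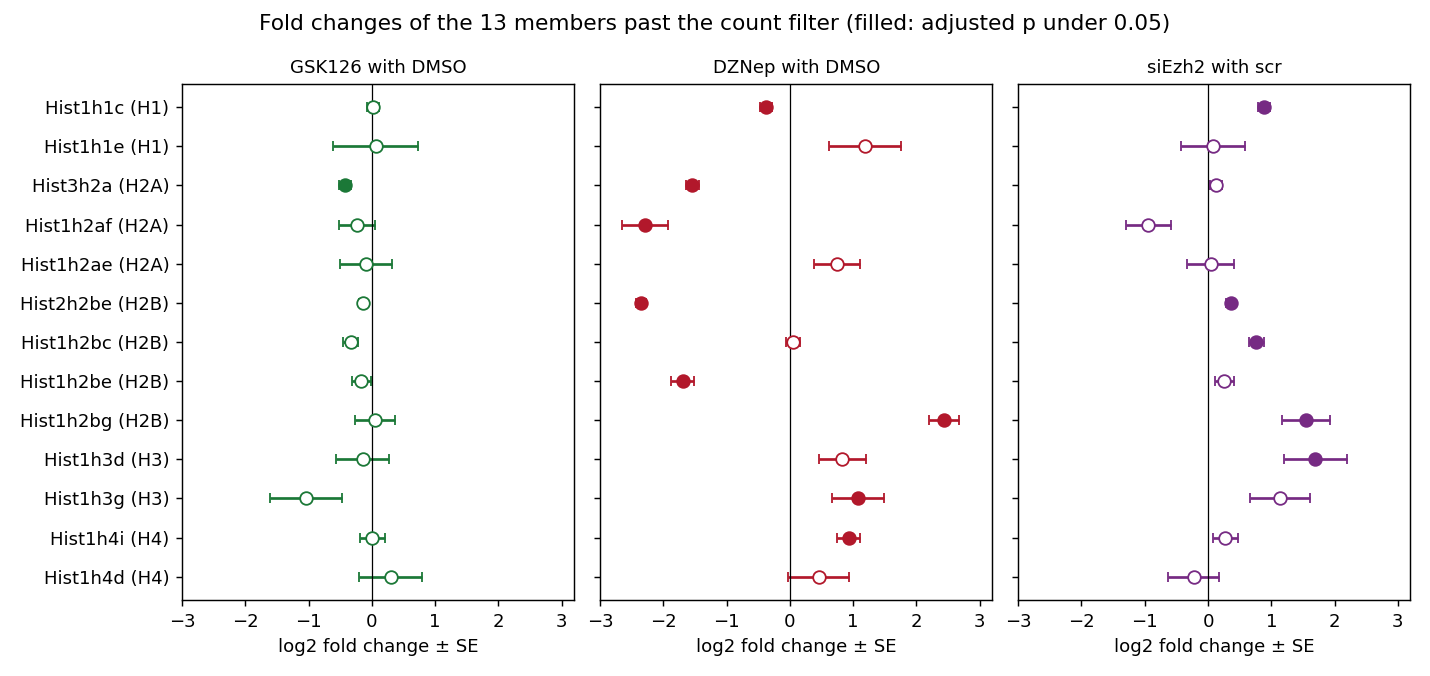
Log2 fold changes ± SE of the 13 members past the filter in GSK126 with DMSO, DZNep with DMSO and siEzh2 with scr (edgeR; filled points have an adjusted p under 0.05). DZNep points spread from -2.35 to 2.44, siEzh2 points lie mostly right of 0, and 1 GSK126 point is filled.

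Because DZNep and GSK126 share the DMSO libraries, they were also compared directly. With DZNep, 5 members were higher and 5 lower than with GSK126, where 32.9% of all tested genes were higher and 31.7% lower, and the libraries did not overlap for 12 of the 13, against 70.5% of all tested genes. Hist1h2bg and Hist1h3g had the largest increases, at 2.39 ± 0.24 (adjusted p = 4.59e-08) and 2.12 ± 0.50 (adjusted p = 0.00104). Hist2h2be and Hist1h2af had the largest decreases, at -2.21 ± 0.08 (adjusted p = 7.9e-15) and -2.05 ± 0.38 (adjusted p = 0.000195). Hist1h2bc, which was not separable from DMSO, was 0.39 ± 0.12 higher with DZNep than with GSK126 (adjusted p = 0.00888). Hist1h3d, at 0.98, kept an adjusted p of 0.0339 with all libraries, but it was 0.125 and 0.109 without GSK126 replicates 2 and 3 and 0.0894 and 0.0721 without DZNep replicates 1 and 3.

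The effect of siEzh2 against scr exceeded that of GSK126 against DMSO for 6 members and fell short of it for 0, where 10.1% of all tested genes had a higher and 10.5% a lower effect. For the lower direction, 0 members had an unadjusted p under 0.05 and DESeq2 called 0, and for the higher direction DESeq2 called 4. The difference of effects was 1.10 ± 0.17 for Hist1h2bc (adjusted p = 0.000111), 0.86 ± 0.14 for Hist1h1c (adjusted p = 0.000124), 0.49 ± 0.09 for Hist2h2be (adjusted p = 0.00071) and 0.54 ± 0.14 for Hist3h2a (adjusted p = 0.00755). It was 1.497 ± 0.50 for Hist1h2bg (adjusted p = 0.0373) and 2.18 ± 0.74 for Hist1h3g (adjusted p = 0.0414). Those were the members that DESeq2 did not call, with an adjusted p of 0.0715 for Hist1h2bg and none given for Hist1h3g. With single libraries left out, the adjusted p reached 0.102 for Hist1h2bg, without DMSO replicate 3, and 0.179 for Hist1h3g, without that same library.

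The controls themselves differed. In scr with DMSO, 4 members were lower and 0 higher, where 13.6% of all tested genes were lower and 12.2% higher, and the libraries did not overlap for 6 of the 13, against 37.5% of all tested genes. For the higher direction 1 member had an unadjusted p under 0.05 and DESeq2 called 0. Hist1h3d was at -1.43 ± 0.50 (adjusted p = 0.0387), Hist1h2bg at -1.31 ± 0.38 (adjusted p = 0.0136), Hist1h2bc at -0.68 ± 0.12 (adjusted p = 0.000369) and Hist1h1c at -0.48 ± 0.10 (adjusted p = 0.00104). Without DMSO replicate 3 the adjusted p was 0.0781 for Hist1h3d and 0.0693 for Hist1h2bg, without scr replicate 3 it was 0.11 and 0.0541 for the same genes, and Hist1h3d also lost its call without DMSO replicate 1 (0.131) and scr replicate 2 (0.147). Transfection, the vehicle and the separate S numbers in the titles of these groups, whose meaning is not stated, cannot be told apart here.

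The 55 members below the filter summed to 1.68 ± 0.28 CPM with GSK126, 2.22 ± 0.26 CPM with DZNep and 1.61 ± 0.28 CPM in DMSO. They summed to 2.46 ± 0.08 CPM with siEzh2, against 1.56 ± 0.15 CPM in scr (SD, n = 3 each), and those ranges, 2.41 to 2.56 and 1.39 to 1.67, did not overlap. In a fit with no filter, which tested 25395 genes, the 33 members with counts gave 1 call with DZNep against DMSO, 1 with siEzh2 against scr and 0 with GSK126 against DMSO, where 1 had an unadjusted p under 0.05. Without the filter, 4.61% of all genes were higher and 4.82% lower with GSK126 than in DMSO, 19.1% were higher with DZNep than in DMSO, 7.56% were higher and 8.39% lower with siEzh2 than in scr, 20.3% were higher with DZNep than with GSK126, and 7.26% were higher in scr than in DMSO. The DZNep call was Hist2h3c2, an H3 gene, with 10, 9 and 5 counts with DZNep, against 2, 1 and 5 in DMSO (1.87 ± 0.67, adjusted p = 0.016). The siEzh2 call was Hist1h2ad, an H2A gene, with 5, 8 and 11 counts with siEzh2, against 0, 1 and 3 in scr (2.69 ± 0.75, adjusted p = 0.00337).

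Genes around histone supply were read from lists of their own. Of the 10 tested histone genes listed as replication-independent, most of whose mRNAs are polyadenylated, 2 were higher and 6 lower with DZNep. H2afx, the variant phosphorylated at DNA breaks, rose by 0.87 and Cenpa, the centromeric H3 variant, by 0.52, while the linker histone genes H1f0 and H1fx were at -1.14 (adjusted p = 2.05e-12) and -2.03 (adjusted p = 1.36e-07). H1f0 averaged 287 ± 22.1 CPM with DZNep and 630 ± 12 CPM in DMSO (SD, n = 3 each), so the linker histone genes Hist1h1c, H1f0 and H1fx fell with DZNep, while Hist1h1e did not pass the test. In siEzh2 with scr, 0 of the 10 were higher and 3 lower (H2afz at -0.23, H2afv at -0.25 and H1fx at -0.50), a direction opposite to the 5 clustered members that rose. In GSK126 with DMSO, 0 were higher and 3 lower, among them H2afj at -0.36 and H2afy at -0.29.

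Of the 18 genes for histone pre-mRNA processing and transcription, 6 were higher and 4 lower with DZNep. Casp8ap2, the FLASH protein that recruits the processing machinery, was at 0.89 (adjusted p = 3.49e-09), Eri1, an exonuclease of histone mRNA ends, at 0.51 and Slbp at 0.41. Slbp averaged 100 ± 1.68 CPM with DZNep and 75.3 ± 3.43 CPM in DMSO (SD, n = 3 each). Lsm10, a subunit of the U7 particle, was at -0.45 and Sympk, a scaffold of the cleavage factor, at -0.24. With siEzh2 2 were higher (Lsm11 at 0.23 and Ncbp2 at 0.16) and 2 lower (Sympk at -0.22 and Hinfp, a factor of H4 promoters, at -0.29), and Slbp averaged 70.4 ± 11.1 CPM with siEzh2 and 77 ± 0.427 CPM in scr. With GSK126, 0 were higher and 3 lower (Sympk at -0.18, Lsm10 at -0.38 and Upf1 at -0.18).

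Of 20 histone chaperone genes, 10 were higher and 1 lower with DZNep. Chaf1a, the large subunit of the assembly factor CAF-1, was at 0.65 and Ssrp1, a subunit of FACT, at 0.54, and Npm1 was at -0.50. With siEzh2, 1 was higher (Ubn1 at 0.13) and 5 lower, among them Nap1l1 at -0.42 and Nasp at -0.40, which carry core histones. With GSK126, 0 were higher and 2 lower. Of 44 S phase genes, 28 were higher and 4 lower with DZNep, 1 was higher and 25 lower with siEzh2, and 0 were higher and 1, Cdk2, lower with GSK126. Rrm2, of nucleotide supply, was at 0.74 with DZNep, and Cdc45 and Cdt1, of replication origins, were at -0.56 and -0.50 with siEzh2. The median log2 fold change of the S phase list was 0.26 with DZNep and -0.20 with siEzh2, beside 0.46 and 0.27 for the 13 clustered members. The DZNep median of 0.46 was not a shared rise. Of the 13, 3 were higher and 5 lower, and the summed level of the 68 members had a log2 ratio of -0.58. The S phase counts depended on the control. With siEzh2 against DMSO, 0 were higher and 11 lower, at a median of -0.10, beside 0.23 for the clustered members. In scr with DMSO, 15 were higher and 2 lower. Cdc45 averaged 36.9 CPM with siEzh2, 42.3 CPM in DMSO and 54.4 CPM in scr, and Cdt1 64.7, 70.5 and 91.7 CPM. With siEzh2 the medians of the S phase and clustered histone lists thus had opposite signs with either control. The part of the cell cycle in the histone levels was not tested.

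**Figure D5:**
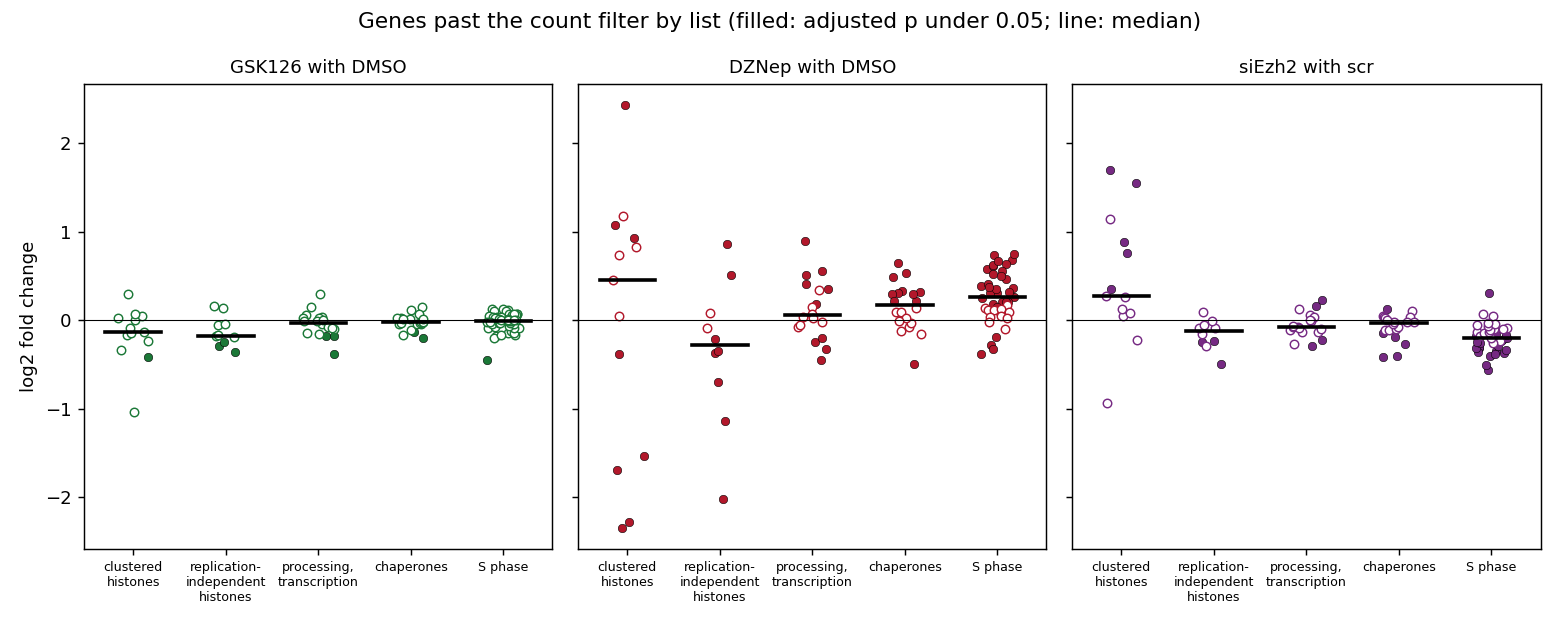
Log2 fold changes of every tested gene in 5 lists (1 point per gene; filled for an adjusted p under 0.05; line at the median) in GSK126 with DMSO, DZNep with DMSO and siEzh2 with scr. With DZNep the clustered histones spread to both sides, from -2.35 to 2.44, while most S phase points lie above 0, and with siEzh2 most S phase points lie below 0.

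Non-polyadenylated RNAs were looked for because most clustered histone mRNAs lack a tail. Of 21 listed, 5 passed the filter, and the sum of all 21 was 2.62 to 7.70 CPM over the 15 libraries. With DZNep it was 2.62 to 4.03 CPM, against 3.87 to 5.44 CPM in DMSO, and with siEzh2 3.55 to 7.70 CPM, against 4.37 to 6.35 CPM in scr. Both pairs of ranges overlapped. Rpph1, the RNA of ribonuclease P, was at -1.77 with DZNep (adjusted p = 0.000476), and its part in the histone values was not tested.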

How the data were processed

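The authors deposited raw whole-number counts per gene. Per the submitters' processing notes, STAR, featureCounts and the build GRCm38 were used. Versions, annotation, strand setting and the handling of reads that match several genes were not stated in the labels. Symbols, exon lengths and transcripts came from GENCODE M21 and promoters from RefSeq. Tests came from edgeR 4.0.16 (R 4.3.3), its quasi-likelihood method on TMM-scaled libraries, after its low-count filter (minimum count 10, which left 15152 genes), with 1 term per group in 1 fit of 15 libraries and Benjamini-Hochberg adjustment over all tested genes, with calls at an adjusted p under 0.05. Every adjusted p is from this fit unless another setting is named. RPKM values used exon lengths. The fit was tested on simulated data for GSK126 with DMSO only, with 14913 genes. It recovered 79% of 100 genes changed 1.5-fold and 88% of 100 genes changed 2-fold, with 7 false calls. Replicates differed beyond sampling noise (chi-square per degree of freedom 5.62 to 36.2). The members follow a rule on symbols, but that rule and the lists were chosen with earlier results of these data known. Named genes were Ezh2, the 3 most abundant tested members of each class, the largest called changes, and the 2 genes of each list with the smallest p each way, and the processing list in full. The alternatives were size factors or library totals, DESeq2 1.42.0, no filter, only the groups compared, a replicate block and leaving out each library.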

Additional observations from a re-analysis of the deposited data

Results flagged for a closer look

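For 6 members the effect of siEzh2 against scr differed from the effect of GSK126 against DMSO in a test of the difference itself in edgeR. The difference was 1.10 for Hist1h2bc (0.76 for siEzh2 and -0.34 for GSK126), 0.86 for Hist1h1c (0.88 and 0.02), 0.54 for Hist3h2a (0.12 and -0.42) and 0.49 for Hist2h2be (0.36 and -0.14). It was 2.18 for Hist1h3g (1.14 and -1.04) and 1.497 for Hist1h2bg (1.55 and 0.05), the pair with the fewest reads, and DESeq2 called neither of these. Each effect has its own control. With siEzh2 set against DMSO, the log2 fold change was 0.09 for Hist1h2bc, 0.40 for Hist1h1c, 0.01 for Hist3h2a, 0.22 for Hist2h2be, 0.67 for Hist1h3g and 0.23 for Hist1h2bg.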

How the results depend on the processing

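With no low-count filter the members called became 2 lower for GSK126 with DMSO, 5 higher for DZNep with DMSO, 1 lower for siEzh2 with scr, 8 higher for DZNep with GSK126 and 1 higher for scr with DMSO. DESeq2 called 1 lower for siEzh2 with scr, and so did the fit with the replicate number as a block. DESeq2 called fewer members elsewhere, 2 higher for DZNep with DMSO, 4 higher for DZNep with GSK126, 3 lower for scr with DMSO and 4 higher for the difference of effects. The numbers were not taken to pair the libraries, because same-numbered libraries had correlations of deviations between -0.21 and 0.13 and in no comparison were all above 0.1. With DMSO in place of scr, siEzh2 had 2 members higher and 1 lower. Leaving out 1 library at a time gave 0 to 2 lower for GSK126 with DMSO, 2 to 4 higher for DZNep with DMSO, 0 to 1 lower for siEzh2 with scr, and 0 to 2 higher and 2 to 5 lower for scr with DMSO, and 4 to 6 higher for the difference of effects. The summed level was at -0.27 for DZNep with DMSO and -0.12 for DZNep with GSK126 without Hist2h2be, and at 0.38 for siEzh2 with scr without Hist1h1c. Single-gene values under the alternatives were counted for 45 pairs of gene and comparison. Each pair was called in the main fit or under at least 1 alternative, and all other pairs were left out. Of the values of the 45 pairs, 511 stayed on their side of the threshold, 24 gained a call, 42 lost one and none turned direction. The cause was not tested. The part of depth in the low-count members was not tested.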
